A study of Mus musculus with 4 samples.

Results

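The genes for Mediator and for the nuclear pore were examined for sites bound by Flag-tagged Nynrin in blood progenitors. The members were all protein-coding genes with a mouse symbol made of Med or Nup, digits and at most 1 further letter. This naming rule gave 30 Mediator and 20 Nup genes, 50 of the 21887 protein-coding genes on chromosomes 1 to 19, X and Y. None lies on chromosome 1, 18, 19 or Y. The naming rule used no measured value.

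Chromatin was precipitated with an antibody to Flag and the recovered DNA sequenced (ChIP-seq), using lineage-negative bone-marrow cells, the fraction left after cells with mature blood markers are removed. The mice were 8 weeks old, of strain C57BL/6 and genotype 3xFlag-Nynrin-Tg, so every library came from animals that carry the tagged transgene. The labels do not give the promoter of the transgene, and do not say whether the replicates are from separate animals, so the spread between them may be technical. The series has 2 Flag ChIP and 2 input libraries, and the peak lists of both Flag libraries were used. Peaks hold no expression values, so the identity of the cells was not checked against markers. No ChIP from untagged cells was used here, and every value below is that of a peak called in a Flag library.

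Mediator is a large complex that carries signals from DNA-bound activators to RNA polymerase II. Its head and middle contact the polymerase, its tail receives many activators, Med14 runs through it as a backbone, and a separable kinase module built on Med12 and Med13 controls its contact with the polymerase. The nuclear pore is the channel between nucleus and cytoplasm. Stacked rings of scaffold nucleoporins hold a central channel of flexible FG-repeat proteins, with filaments towards the cytoplasm and a basket towards the nucleus. Genes of both complexes are active in most cell types, and Nup98 and Nup214 are known from fusion oncogenes in leukaemia.

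A gene is termed called when a summit, the highest point of a peak, lay within 1000 bp of either gene end in both replicates. The windows around gene starts that carried summits are shown first, because they hold the positions the results refer to. They are 300-base RefSeq windows of GRCm38.p6, the assembly behind mm10, running from 250 bases before an annotated start to its first 50 bases. Such windows were found for 42 of the 50 members, 26 Mediator and 16 Nup genes, and not for Med8, Med23, Med24, Med30, Nup35, Nup43, Nup85 and Nup210l. The first 6 are the highest-ranking Mediator and Nup genes with both replicates' summits inside a single window. Nup188 and Nup88 follow because they hold a word shared with Nup50 and Nup205. The last 2 are the second annotated start of Med10, which had a summit nearby in replicate 2 alone, and the start of Nup160, which had none within 1000 bp. The replicate 2 summits at Med10 and Nup88 lay just past the printed windows, 65 and 55 bp beyond those starts. Capitals mark the 8 short words listed with the motif counts further on.
Med20 (chr17:47611335-47611634, plus strand): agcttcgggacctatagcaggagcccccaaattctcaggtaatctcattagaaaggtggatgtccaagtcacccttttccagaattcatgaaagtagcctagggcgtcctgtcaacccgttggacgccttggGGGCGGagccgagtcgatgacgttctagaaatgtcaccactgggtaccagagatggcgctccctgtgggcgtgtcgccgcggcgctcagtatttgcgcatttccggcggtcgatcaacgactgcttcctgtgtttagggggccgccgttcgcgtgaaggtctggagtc
Med22 (chr2:26910593-26910892, minus strand): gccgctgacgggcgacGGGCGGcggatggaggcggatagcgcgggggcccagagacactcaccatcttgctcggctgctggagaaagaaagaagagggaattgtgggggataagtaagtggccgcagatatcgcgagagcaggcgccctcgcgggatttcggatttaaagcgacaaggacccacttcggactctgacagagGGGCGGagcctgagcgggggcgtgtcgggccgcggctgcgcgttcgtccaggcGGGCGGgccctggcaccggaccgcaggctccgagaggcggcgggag
Med19 (chr2:84678152-84678451, plus strand): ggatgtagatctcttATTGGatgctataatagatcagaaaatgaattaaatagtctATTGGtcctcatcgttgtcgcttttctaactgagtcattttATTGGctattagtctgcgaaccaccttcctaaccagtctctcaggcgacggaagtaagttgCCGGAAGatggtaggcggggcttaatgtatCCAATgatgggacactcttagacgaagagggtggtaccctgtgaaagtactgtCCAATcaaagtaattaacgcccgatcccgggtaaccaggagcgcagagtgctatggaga
Nup50 (chr15:84923178-84923477, plus strand): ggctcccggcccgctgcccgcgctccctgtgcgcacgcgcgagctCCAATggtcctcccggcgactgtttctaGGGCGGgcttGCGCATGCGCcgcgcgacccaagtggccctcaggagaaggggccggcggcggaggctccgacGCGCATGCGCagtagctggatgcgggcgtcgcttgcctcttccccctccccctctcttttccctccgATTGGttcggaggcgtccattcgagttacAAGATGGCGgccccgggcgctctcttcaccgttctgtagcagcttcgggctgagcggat
Nup54 (chr5:92435150-92435449, minus strand): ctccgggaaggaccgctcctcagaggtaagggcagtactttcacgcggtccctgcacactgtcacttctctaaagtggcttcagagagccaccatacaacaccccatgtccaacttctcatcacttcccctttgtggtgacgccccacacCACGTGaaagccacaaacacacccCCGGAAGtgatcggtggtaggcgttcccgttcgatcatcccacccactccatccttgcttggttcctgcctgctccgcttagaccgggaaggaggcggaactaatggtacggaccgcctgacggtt
Nup205 (chr6:35177366-35177665, plus strand): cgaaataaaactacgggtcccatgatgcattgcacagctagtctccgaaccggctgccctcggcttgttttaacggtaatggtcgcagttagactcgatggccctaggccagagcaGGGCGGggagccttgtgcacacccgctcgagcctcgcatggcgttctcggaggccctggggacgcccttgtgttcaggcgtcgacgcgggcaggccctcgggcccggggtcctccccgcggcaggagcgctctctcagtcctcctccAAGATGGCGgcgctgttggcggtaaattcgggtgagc
Nup188 (chr2:30286166-30286465, plus strand): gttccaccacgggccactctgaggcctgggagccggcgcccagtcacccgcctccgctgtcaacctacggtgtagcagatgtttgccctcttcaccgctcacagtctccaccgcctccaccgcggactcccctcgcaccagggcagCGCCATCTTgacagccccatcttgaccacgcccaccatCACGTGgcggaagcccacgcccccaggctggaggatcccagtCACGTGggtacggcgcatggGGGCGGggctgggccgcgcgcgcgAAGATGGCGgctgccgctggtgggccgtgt
Nup88 (chr11:70969924-70970223, minus strand): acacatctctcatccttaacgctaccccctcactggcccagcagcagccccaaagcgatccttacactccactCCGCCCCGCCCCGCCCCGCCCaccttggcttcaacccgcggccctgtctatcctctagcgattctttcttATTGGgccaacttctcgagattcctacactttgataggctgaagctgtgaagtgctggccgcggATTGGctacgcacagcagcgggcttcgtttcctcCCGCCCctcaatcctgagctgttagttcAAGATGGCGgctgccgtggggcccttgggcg
Med10 (chr13:69809632-69809931, plus strand): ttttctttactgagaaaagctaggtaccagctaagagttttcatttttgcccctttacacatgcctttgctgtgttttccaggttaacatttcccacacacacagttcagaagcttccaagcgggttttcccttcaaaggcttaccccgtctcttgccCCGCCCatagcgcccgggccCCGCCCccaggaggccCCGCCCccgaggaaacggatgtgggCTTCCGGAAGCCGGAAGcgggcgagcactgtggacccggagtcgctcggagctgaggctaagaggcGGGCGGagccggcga
Nup160 (chr2:90676965-90677264, plus strand): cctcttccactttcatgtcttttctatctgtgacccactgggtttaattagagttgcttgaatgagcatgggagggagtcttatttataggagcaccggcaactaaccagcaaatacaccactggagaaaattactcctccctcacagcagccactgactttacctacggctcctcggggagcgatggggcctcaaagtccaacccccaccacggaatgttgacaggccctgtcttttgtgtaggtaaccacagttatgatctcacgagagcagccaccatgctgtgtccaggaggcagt

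Most genes of both complexes carried a Flag summit at an end. Among Mediator genes 23 of 30 (76.7%) were called and among Nup genes 17 of 20 (85.0%), against 31.9% of all protein-coding genes. Replicate 1 had a summit at 23 Mediator genes (76.7%) and 17 Nup genes (85.0%), against 32.6% of all genes. Replicate 2, the longer list, had one at 28 Mediator genes (93.3%) and at the same 17 Nup genes (85.0%), against 45.5% of all genes. No member had a summit in replicate 1 alone, a pattern of only 0.672% of all genes. These are descriptions of 2 short gene lists, chosen with earlier results of these data known, and neither list was tested against the genome or against the other.

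The 7 Mediator genes without a call were Med4, Med9, Med10, Med12, Med12l, Med28 and Med31, and all of them lacked a summit in replicate 1. Of these, 5 had a summit in replicate 2 (16.7% of Mediator genes, near the 13.6% of all genes), and Med10 and Med12l had none in either list. The 3 Nup genes without a call, Nup160, Nup210 and Nup210l, had no summit at a gene end in either list. Genes without a summit in either list were 6.67% of Mediator and 15.0% of Nup genes, against 53.8% of all genes.

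**Figure D1:**
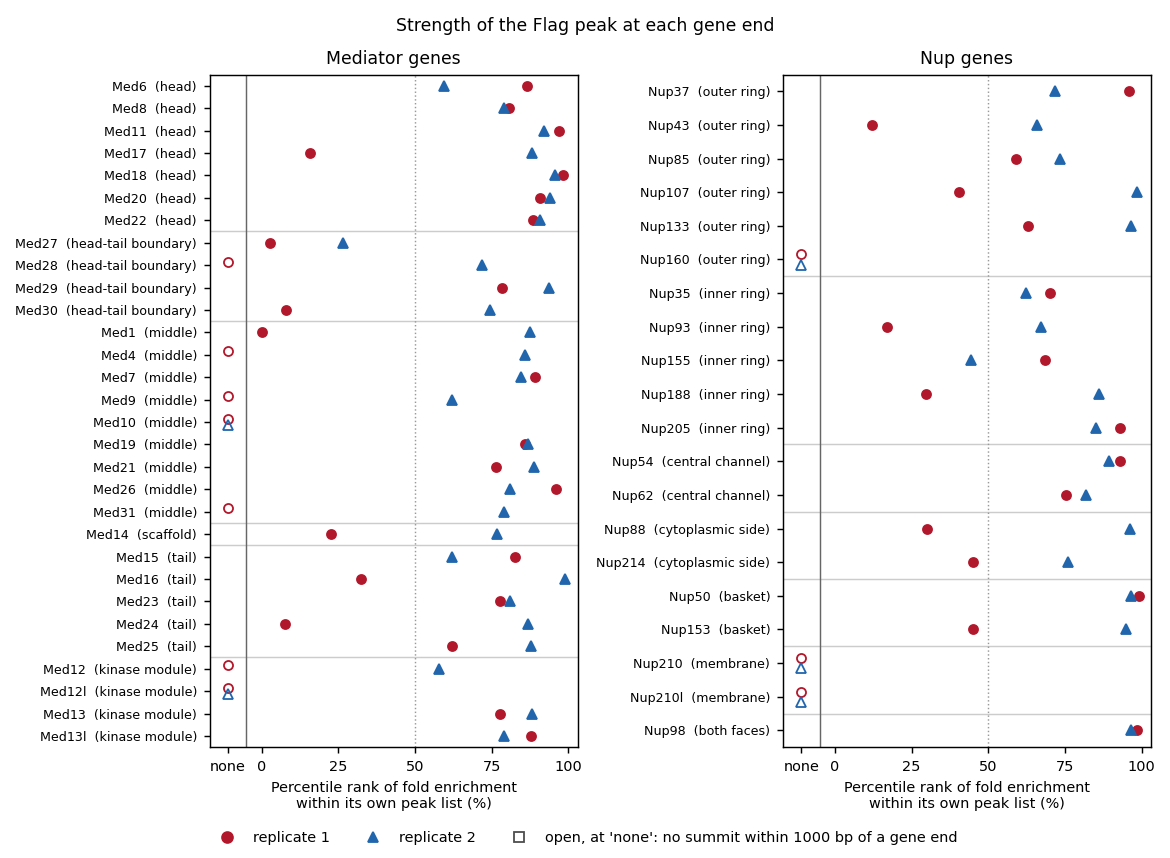
Percentile rank of fold enrichment, within its own peak list, of the strongest peak at the ends of each Mediator gene (left) and Nup gene (right), grouped by place in the complex; circles are replicate 1, triangles replicate 2, and open symbols at "none" mark no summit within 1000 bp of a gene end. In replicate 2, 22 of 23 called Mediator genes and 16 of 17 called Nup genes lie above the 50th percentile, as do 94.2% of all called genes, while in replicate 1 the called genes spread from 0.22 to 99.2.

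All 7 genes of the Mediator head were called. Here and below, counts for the parts of a complex rest on few genes and are to be set beside 31.9% of all genes. The parts were not tested against each other. The strongest was Med18, which forms a movable jaw of the head together with Med20. Fold enrichment, the authors' ratio of ChIP signal over the peak caller's background at the summit, was ranked only within its own list, as a percentile. At Med18 it was 7.83 in replicate 1 and 10.4 in replicate 2, at percentiles 98.4 and 95.6 of those lists. Med11, which pairs with Med22, had fold enrichments of 7.15 and 9.24 (percentiles 96.9 and 91.9). Both genes thus ranked high in both lists. Med20 followed with 5.98 and 9.83 (percentiles 90.6 and 94.1), and Med22 with 5.82 and 8.85 (percentiles 88.6 and 90.6).

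The Med11 gene is short, from 70451918 to 70453732 on chromosome 11, and its replicate 2 peak of 2601 bp, from 70451558 to 70454158, covered it entirely. That was the widest peak at any called member. Med8, which tethers the jaw to the head, had fold enrichments of 5.17 and 6.91, and Med6, at the joint of head and middle, 5.62 and 5.06. Med17, the central scaffold of the head, stood high in replicate 2 alone, with 3.20 in replicate 1 (percentile 15.9) and 8.29 in replicate 2 (percentile 88.0). Over all called genes the median percentiles were 58.9 in replicate 1 and 85.4 in replicate 2.

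Some head genes share their start region with a neighbour. The Med20 summits also lay within reach of Bysl, a ribosome biogenesis gene, and of Gm20517, for which the gene table gives Med20 as a synonym, and the Med22 summits lay within reach of the ribosomal protein gene Rpl7a. A summit within reach of 2 genes cannot be assigned to either.

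In the middle of Mediator 5 of 9 genes were called, against 31.9% of all genes. Med26, which helps to bring elongation factors to the polymerase, had fold enrichments of 6.83 and 7.17, and Med7, part of the hinge of the middle, 5.86 and 7.71. Their ranks lay between percentiles 80.9 and 95.8 in both lists. Med19 had 5.57 and 8.08, with summits also within reach of Tmx2, and Med21, the partner of Med7 in the hinge, had 4.97 and 8.50.

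Med1, the subunit that binds nuclear hormone receptors, was called with very unequal strength. Its replicate 1 peak had a fold enrichment of 2.32 and a −log10 q of 1.59, at percentile 0.22 of that list and close to its lowest −log10 q of 1.31. Its replicate 2 peak had 8.24, with a −log10 q of 17.8 and at percentile 87.4. By fold enrichment the replicate 1 peak at Med1 was the weakest at any called member.

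The other 4 middle genes lacked a summit at an end in replicate 1. Med4 had a replicate 2 peak from 73509717 to 73510427 on chromosome 14, with a fold enrichment of 7.97 (percentile 86.0), and its nearest replicate 1 summit lay 6671 bp from the gene. Med9 had a replicate 2 fold enrichment of 5.31 (percentile 62.2) and its nearest replicate 1 summit 83149 bp away. The 2 genes differ in that Med4 ranks with the called members of replicate 2 and Med9 below most of them. Med31, among the most conserved subunits, had 2 summits in replicate 2. The stronger, with a fold enrichment of 6.91, lay 476 bp inside the start and also within reach of 4930563E22Rik, and the weaker, with 5.05, lay 361 bp from the other end. Its nearest replicate 1 summit was 86030 bp away.

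Med10 was missed at both gene ends, but its gene bounds hold a second start. In replicate 2 a summit with a fold enrichment of 4.78 lay 65 bp beyond the second annotated start, whose window is printed above, and 6155 bp from the nearer gene end. In replicate 1 the nearest summit to the gene was 190545 bp away.

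Of the 4 subunits at the boundary of head and tail, Med27, Med29 and Med30 were called. Med29 had fold enrichments of 5.08 and 9.83, with summits also within reach of Paf1, which encodes a subunit of an elongation complex. Med30 had 2.93 and 6.38, and Med27 had 2.62 (percentile 2.58) and 3.78 (percentile 26.6), low in both lists and the lowest replicate 2 value of a called member. Med28 had a summit in replicate 2 alone, with a fold enrichment of 6.11 and 29 bp upstream of the start.

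The backbone gene Med14 was called with fold enrichments of 3.39 and 6.64. Its annotated start lies inside the gene bounds, and the summits were 50 and 156 bp upstream of that start, while they were 571 and 465 bp from the gene end. In replicate 1 a second, weaker peak with a fold enrichment of 2.95 lay 25 bp from the gene end.

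All 5 tail genes were called. Med15, a target of sterol-responsive activators, had fold enrichments of 5.34 and 5.31, and Med23, which meets growth-factor-activated ETS proteins, 5.05 and 7.17. Med16 had the largest fold enrichment of any member in replicate 2, 12.5 (percentile 98.8), and only 3.63 in replicate 1 (percentile 32.3). For Med16 the ranks in the 2 lists thus lay far apart. Med24, another tail scaffold, had 2.93 and 8.18, and Med25, first known as the target of a viral activator, 4.42 and 8.25.

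In the kinase module the Med13 pair was called and the Med12 pair was not. Med13, which ties the module to the core, had fold enrichments of 5.06 and 8.28, and its paralog Med13l 5.69 and 6.91. The strongest Med13 summits were the farthest from a gene end among the called members, 831 and 842 bp upstream of the start, so Med13 was not called with a 500 bp window. Med12, which activates the kinase, had a summit in replicate 2 alone, with a fold enrichment of 5.05, 135 bp inside its start, and its nearest replicate 1 summit was 33633 bp away. Med12l had no summit at a gene end, but a replicate 2 summit with a fold enrichment of 3.72 lay 73 bp beyond its annotated start, which is inside the gene bounds. It lay 1632 bp from the gene end, just outside the window.

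With annotated starts accepted as well as gene ends, a rule chosen after the data were seen, all 30 Mediator genes had a summit in replicate 2, against 48.8% of all genes. In replicate 1 the count stayed at 23 of 30 (76.7%), against 35.2% of all genes. In both replicates together it was 23 of 30 Mediator genes and 18 of 20 Nup genes (90.0%), against 34.7% of all genes. With starts accepted, the Mediator genes without a call lacked a summit in replicate 1 only. By gene ends alone, Med10 and Med12l lacked one in both lists. Replicate 1 had 12702 peaks and replicate 2 had 25787. Whether list length accounts for the missing summits was not tested. When replicate 2 was reduced to its 12702 peaks of highest −log10 q, 22 Mediator genes and 17 Nup genes were called, against 30.1% of all genes, and Med27 was the member lost.

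**Figure D2:**
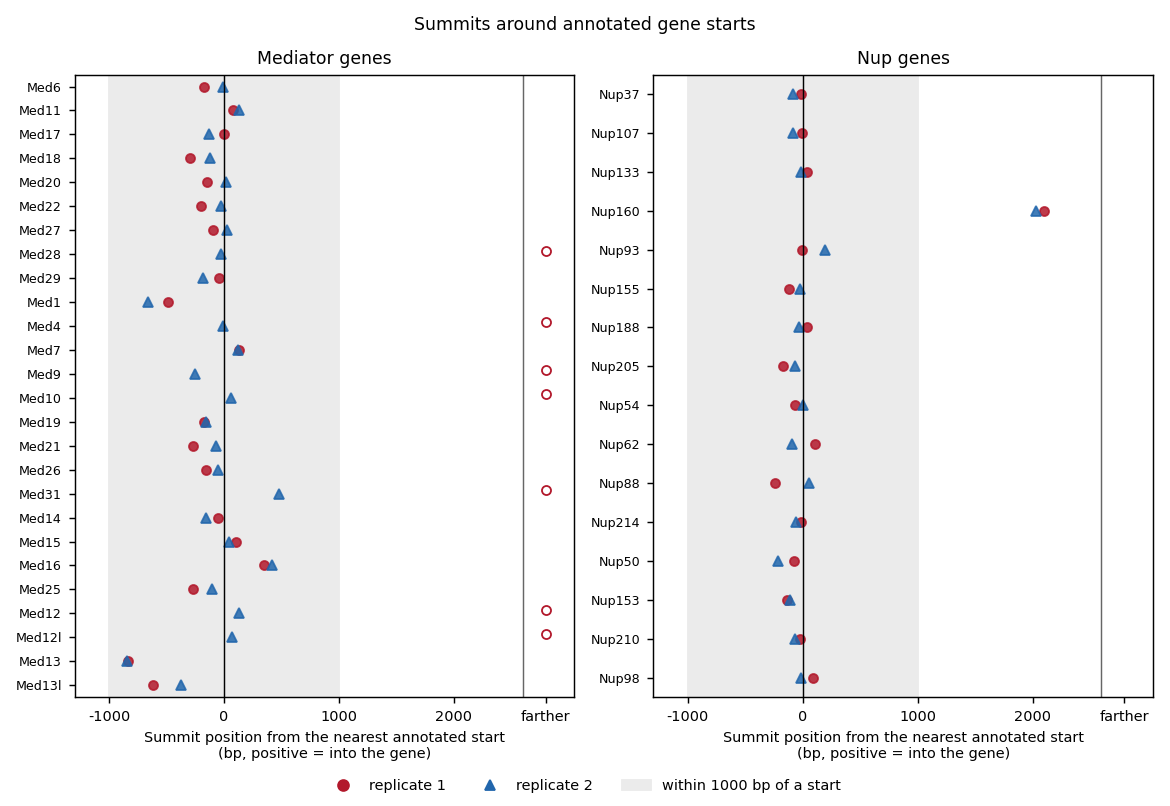
Position of the summit of each replicate relative to the nearest annotated start, in bp with positive values into the gene, for the 26 Mediator genes (left) and 16 Nup genes (right) with a start in the RefSeq table; circles are replicate 1, triangles replicate 2, the grey band spans 1000 bp on either side, and open symbols at "farther" are summits beyond the axis. Nup160 is the only Nup gene outside the band, at 2101 and 2032 bp, while 7 Mediator genes have a replicate 2 summit in the band and a replicate 1 summit beyond the axis.

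In the outer ring of the pore 5 of 6 genes were called, against 31.9% of all genes. The outer ring is built of Y-shaped complexes, with Nup107 and Nup133 in the stem and Nup85, Nup43, Nup160 and Nup37 in the arms. Nup37 had fold enrichments of 6.88 in replicate 1 and 6.11 in replicate 2, with summits also within reach of Parpbp. Nup107 had 3.81 (percentile 40.5) and 12.2 (percentile 98.5), the largest replicate 2 value of any Nup gene. Nup133 had 4.47 and 10.9, Nup85 4.29 and 6.33, and Nup43 3.08 and 5.58. Apart from Nup37, these genes ranked lower in replicate 1 than in replicate 2. The same held for called genes in general, with median percentiles of 58.9 and 85.4.

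Nup160 was the gap in this ring, and it had a peak inside the gene in both replicates. The replicate 1 peak ran from 90678615 to 90679605 on chromosome 2 with a fold enrichment of 4.31, and the replicate 2 peak from 90678292 to 90679882 with 8.50. Their summits lay 2101 and 2032 bp beyond the annotated start, at 90677215. With a 3000 bp window Nup160 was called.

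All 5 inner-ring genes were called. Nup205 and Nup188, paralogous scaffold proteins, had fold enrichments of 6.32 and 7.77, and of 3.56 and 7.97. The Nup188 summits were shared with Dolk, the dolichol kinase gene. Nup155 had 4.64 and 4.42, Nup35 4.71 and 5.31, and Nup93, which links the ring to the central channel, 3.23 and 5.68. Nup93 was among the weakest called Nup genes in replicate 1, at percentile 16.9, together with Nup43 at 12.2.

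The channel, basket and cytoplasmic genes were all called. Nup54 and Nup62 encode FG proteins of the central channel. Nup54 had fold enrichments of 6.31 and 8.53 (percentiles 92.9 and 89.3), and Nup62 4.93 and 7.25, with summits also within reach of Atf5 and Il4i1b. Their partner Nup58 is listed as Nupl1 and so falls outside the naming rule. Nupl1 was called too, with 5.08 and 9.70.

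Nup50, a basket protein that works with importins, had the highest replicate 1 percentile of either complex. Its peak ran from 84922903 to 84924156 on chromosome 15 in replicate 1, with a fold enrichment of 8.57 (percentile 99.2), and from 84922773 to 84924885 in replicate 2, with 10.9 (percentile 96.7). Nup98, a mobile FG protein found on both faces of the pore, was next, with 7.92 and 10.9 (percentiles 98.6 and 96.7), and its summits also lay within reach of Pgap2. Nup50, Nup98 and Nup133 were listed with the same replicate 2 value. Nup153, the other basket gene, had 3.94 and 10.1. Nup88 and Nup214, partners on the cytoplasmic side, had 3.57 and 10.6, and 3.94 and 6.61, with summits also within reach of Rpain and Aif1l.

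The 2 membrane genes were not called. Nup210 encodes a large glycoprotein of the pore membrane. Its summits lay 1470 bp (replicate 1) and 1427 bp (replicate 2) inside the gene bounds, but only 26 and 69 bp upstream of its annotated start, with fold enrichments of 3.97 and 7.17, and also within reach of Gm30364. Counted from annotated starts alone, Nup210 was called. Nup210l, known from the testis, had its nearest summits 1503 and 1575 bp outside the gene, with fold enrichments of 5.08 and 10.6. With the 3000 bp window both were called, so that all 20 Nup genes were.

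Among called genes, the members ranked close to the rest in replicate 2, and Mediator ranked higher in replicate 1, a difference that was not tested. The median percentile of fold enrichment was 78.4 for Mediator and 63.0 for Nup genes in replicate 1, against 58.9 for the 6981 called genes. In replicate 2 the medians were 86.8 and 85.1, against 85.4. Peaks of called members had a median width of 680 bp in replicate 1 and 1158 bp in replicate 2, against 661 and 1250 bp for all called genes. The replicate 2 peak was the wider in 37 of the 40 called members (92.5%), against 91.8% of called genes. The replicates' summits lay a median of 136 bp apart at Mediator and 97.0 bp apart at Nup genes, against 106 bp, and 296 bp was the largest distance at a member, at Nup88.

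Where a start was annotated, the summits at called members stood at gene starts, as they did at most called genes. Of the 33 called members with an annotated start, all 33 had the strongest summit of both replicates within 1000 bp of a start, against 91.1% of the 5768 called genes with a start. The median distance from the start was 170 bp in replicate 1 and 121 bp in replicate 2 at Mediator genes, and 72.5 and 61.5 bp at Nup genes. Over all such called genes it was 128 and 120 bp. In replicate 1, 12 of 19 Mediator genes and 13 of 14 Nup genes had the summit within 200 bp of a start, against 66.4%, and in replicate 2 these numbers were 15 of 19 and 13 of 14, against 68.7%. Summits lay upstream of the start at 24 of 33 members in replicate 1 and 25 of 33 in replicate 2 (72.7% and 75.8%), against 58.8% and 60.9%. When only annotated starts were scored, 19 of 26 Mediator genes (73.1%) and 15 of 16 Nup genes (93.8%) were called, against 34.5% of all genes with a start.

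**Figure D3:**
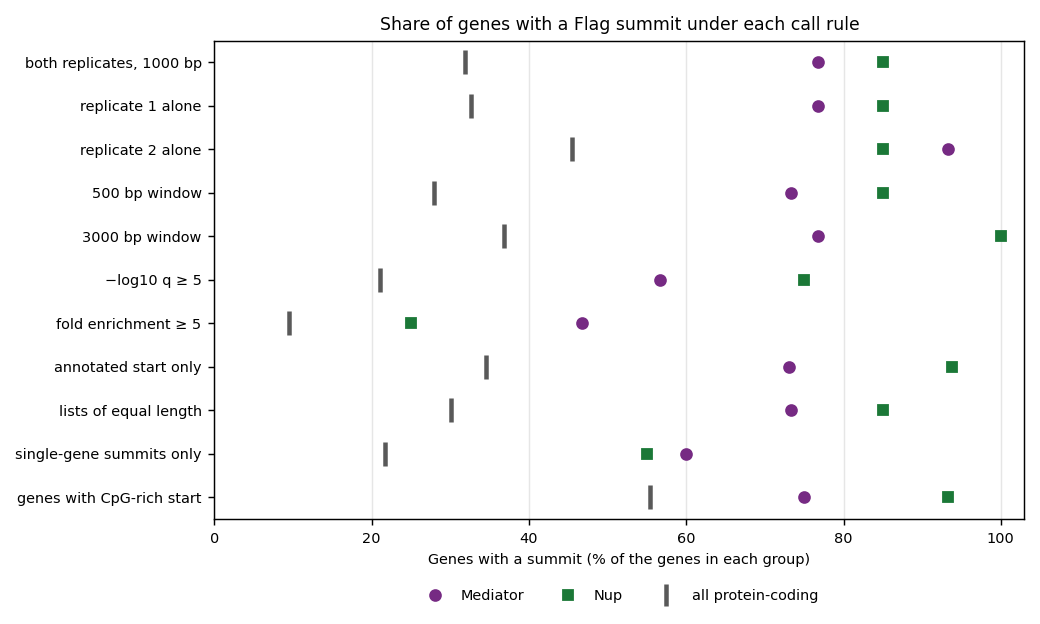
Share of genes called under each rule, in percent of the genes in the group, for Mediator genes (circles), Nup genes (squares) and all protein-coding genes (vertical ticks). Both complexes lie above all genes under every rule plotted, and the order of the complexes changes with the rule: at a fold enrichment of at least 5 in both lists Mediator is at 46.7% and Nup at 25.0%, against 9.52% of all genes.

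The order of the complexes depended on the rule. When a −log10 q of 5 or more was required of both peaks, 17 Mediator genes (56.7%) and 15 Nup genes (75.0%) were called, against 21.1% of all genes. With fold enrichment of at least 5 in both lists they were 14 (46.7%) and 5 (25.0%), against 9.52%. The Nup genes that kept the call were Nup37, Nup50, Nup54, Nup98 and Nup205. The other 12 called Nup genes had a fold enrichment under 5 in at least 1 list. Over all genes the number called fell from 6981 to 2084 under the same rule, so such losses are not particular to Nup genes. A 500 bp window gave 22 Mediator genes and 17 Nup genes, against 27.9% of all genes, and a 3000 bp window 23 and 20, against 36.8%. When overlapping peaks at the same gene end were required, all 23 and 17 calls were kept, against 31.6% of all genes. Any base of a peak within 1000 bp of an end gave 23 and 18, against 33.7%.

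Many members lie close beside another gene. Another gene's end lay within 1000 bp of an end of 14 of 30 Mediator genes and 10 of 20 Nup genes, against 24.8% of all genes. Among all genes, those with such a neighbour were called in 56.4% of cases and those without in 23.8%. Of the Mediator genes, 9 of the 14 with a neighbour and 14 of the 16 without were called, and of the Nup genes 9 of 10 and 8 of 10. The strongest summit was shared with another gene at 5 of 23 called Mediator genes and 6 of 17 called Nup genes, against 33.2% of called genes. Without summits that reach several genes, 18 Mediator genes (60.0%) and 11 Nup genes (55.0%) were called, against 21.7% of all genes.

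CpG content also moved with the calls. The ratio of observed to expected CpG in the start window, taken as the highest over a gene's starts, was at least 0.6 (termed CpG-rich) in 24 of 26 Mediator genes (92.3%) and 15 of 16 Nup genes (93.8%), against 50.9% of 17492 protein-coding genes with a window. Of all genes with a CpG-rich start 55.4% were called, and of those with another start 9.78%. Within the CpG-rich class 18 of 24 Mediator genes (75.0%) and 14 of 15 Nup genes (93.3%) were called. The 3 members below the mark were Med11 (0.59), Med31 (0.54) and Nup160 (0.31). Of these Med11 was called and ranked among the strongest, while the Nup160 start had no summit within 1000 bp. What part CpG content or neighbouring genes have in the members' share was not tested.

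**Figure D4:**
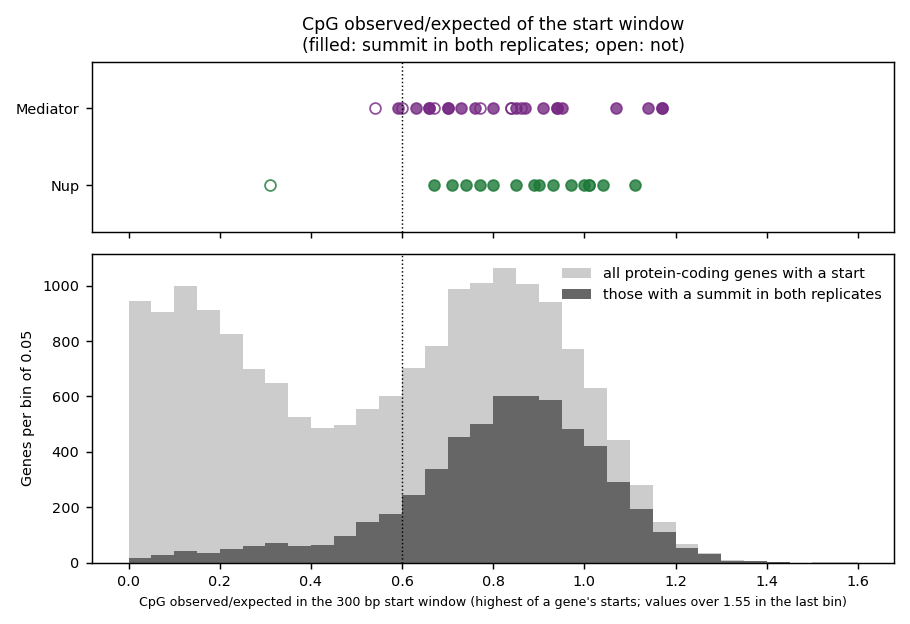
Ratio of observed to expected CpG in the 300-base start window. The upper panel has a point per gene for the 26 Mediator and 16 Nup genes (filled where called, open where not), and the lower panel counts all protein-coding genes per bin of 0.05 (light) and the called ones among them (dark), with a dotted line at 0.6. Of the members 39 of 42 lie at or above the line, where most called genes of the genome also lie.

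Short words of known promoter-binding factors were counted in the start windows on both strands. GGGCGG, bound by SP and KLF factors, was found in 17 of 26 Mediator genes (65.4%) and 12 of 16 Nup genes (75.0%), against 49.2% of all genes with a window and 71.7% of called genes. CCGGAAG, the core of many ETS sites, was found in 8 (30.8%) and 4 (25.0%), against 12.9% of all and 24.9% of called genes. CCAAT, bound by NFY, was found in 10 of 26 and 8 of 16, against 42.3% and 43.8%. For these words the members lie near the called genes.

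AAGATGGCG, a word bound by YY1, was the one on which the complexes differed most in share, a difference that was not tested. It was found in no Mediator window and in 4 Nup windows (25.0%), against 2.14% of all and 4.68% of called genes. Its first base lay 9 bp before the start of Nup50 and 13, 19 and 20 bp beyond those of Nup205, Nup88 and Nup188, in the direction of the gene, as the capitals in the windows printed above show. Nup188 held a second copy on the other strand, 104 bp upstream. In replicate 1 the 4 genes lay between percentiles 29.7 and 99.2, and in replicate 2 between 85.1 and 96.7. A match shows letters only, not a bound factor.

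The other words were rarer. GCATGCGC, part of the palindromic site of NRF1, was found in 3 Mediator genes (Med4, Med15 and Med17) and 3 Nup genes (Nup50, Nup62 and Nup107), 11.5% and 18.8%, against 3.94% of all and 7.49% of called genes. In Nup50 it appeared on both strands at 2 places, where each match overlaps its own reverse complement. CACGTG, the E-box, was found in 3 Mediator genes (11.5%) and 3 Nup genes (18.8%), against 8.91% of all and 12.6% of called genes. TGACGTCA, the cyclic AMP response element, was found in Med21, Nup133 and Nup214 (2.54% of all and 4.49% of called genes), and ACTACAATT, part of the ZNF143 site, in Med11 alone of the members (0.577% of all and 1.06% of called genes). The second Med10 start held GGGCGG or its complement at 4 places and CCGGAAG at 3, where an ETS match on each strand overlaps.

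Genes of the same machines that the naming rule leaves out were also called for the most part, against 31.9% of all genes. Of 3 kinase-module partners, Cdk8 (fold enrichments 3.70 and 7.17) and its paralog Cdk19 (5.83 and 12.2) were called, and the cyclin gene Ccnc had a summit in replicate 2 alone (5.61). Of 11 further pore genes 9 were called, including the basket gene Tpr (5.88 and 12.2), Ranbp2 of the cytoplasmic filaments (5.51 and 11.0), the mRNA export gene Rae1 (5.71 and 10.9), the membrane gene Ndc1 (5.57 and 9.03) and Ahctf1, which seeds pore assembly on chromatin (5.86 and 9.03). Aaas, Gle1, Nupl2 and Seh1l were called too, with fold enrichments of 4.14 to 5.84 in replicate 1. The outer-ring gene Sec13 had a summit in replicate 2 alone (8.77). Pom121 had none at a gene end, though a replicate 1 summit (2.51) and a replicate 2 summit (9.30) lay at −337 and 26 bp from an annotated start, negative values being upstream.

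Of 18 transport factor genes picked by name 17 were called, against 31.9% of all genes. They are a selection and not the full set of such genes, so 17 of 18 is not a rate for transport factors. The exportin gene Xpo1 (8.01 and 12.5) and the importin gene Kpnb1 (7.55 and 13.6) ranked above every member at the lower of their 2 percentiles, 98.8 and 97.8, against 96.7 for Nup50. Ran, the GTPase that gives transport its direction, had 4.09 and 6.38, its exchange factor gene Rcc1 4.47 and 11.9, and its activator gene Rangap1 3.12 and 11.4. Ipo5 had no summit at a gene end, but its annotated start had summits at −305 and −215 bp (4.14 and 9.57).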

How the data were processed

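Flag ChIP-seq peak lists of 2 libraries were analysed; the 2 input libraries were not analysed here. Per the submitters' processing notes, Bowtie2 and MACS2 were used, with cutadapt, Trimmomatic, FastQC and also ChIPseeker named, on build mm10. Versions, order, cutoff and whether input served as control are not given in the sources used here. Each deposited peak has bounds, a summit offset, fold enrichment as a linear ratio, −log10 p, −log10 q and a score that was not used, all as the authors' caller gave them for each library. Depth is unknown, since the lists hold no counts.

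Only chromosomes 1 to 19, X and Y were used (12702 of 12716 and 25787 of 25807). Where several summits reached a gene, the one with the highest fold enrichment was described. Ranks are percentiles within a list, with ties averaged. Gene bounds and starts came from RefSeq tables of GRCm38.p6. Places in the complexes follow textbook structure. Every member is named; fuller values went to the 4 genes of each complex with the highest lower percentile and to members with a summit in 1 replicate. Members, lists and motifs were chosen with earlier results of these data known. One neighbouring gene is not reported here. No test was run, because genes are not replicates. The assignment of summits was tested on simulated data. Python 3.11.15, numpy 2.4.6, pandas 2.3.3 and matplotlib 3.10.9 were used.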

Additional observations from a re-analysis of the deposited data

How the results depend on the processing

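The count of called genes stayed within 1.5 times its value of 23 for Mediator and 17 for Nup genes under all alternatives but these. With fold enrichment of at least 5 in both lists it was 14 for Mediator and 5 for Nup genes, and without summits near several genes it was 11 for Nup genes. Over all genes the count of 6981 fell to 2084 and to 4739 under the same rules. Using a single replicate gave 23 to 28 Mediator genes and 17 Nup genes. Over single genes, the calls of 10 of 30 Mediator genes and 3 of 20 Nup genes (Nup50, Nup54 and Nup205) were the same under every alternative run for the gene, among them Med10 and Med12l, which were never called in both replicates. Med23, also among the 10, was not scored by starts alone. The share of all genes with unchanged calls is not given, so these counts do not set the complexes apart from each other or from other genes. Depth is unknown, so a missing summit is not evidence that a site is unbound. No paired analysis was possible because the inputs were not analysed here and no result comes from a test.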

Other observations

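Inside the members, more than 1000 bp from both gene ends, replicate 1 had 9 summits in 4 Mediator genes and 2 in 2 Nup genes, and replicate 2 had 26 in 5 Mediator genes and 7 in 4 Nup genes. Per 100 kb of gene interior that was 0.705 for Mediator and 0.198 for Nup genes in replicate 1, against 0.375 over all protein-coding genes, and 2.04 and 0.694 in replicate 2, against 0.959. The Mediator densities rest largely on Med12l and Med13l, which held most of the Mediator summits in both lists. The only other Mediator genes with an inside summit, Med10, Med24 and Med29, held 1 or 2 in a list. Of all protein-coding genes 11.9% held such a summit in replicate 1 and 22.7% in replicate 2, while 4 and 5 of 30 Mediator genes and 2 and 4 of 20 Nup genes did. Med12l, a long gene, held 6 in replicate 1 and 14 in replicate 2, of which 5 in each list overlapped a peak of the other. The shared peak with the highest fold enrichment in replicate 2 ran from 59119936 to 59120953 on chromosome 3 in replicate 1 (fold enrichment 3.95) and from 59119784 to 59120912 in replicate 2 (6.11), with summits 115089 and 115020 bp from the nearer gene end. Another shared peak, with 4.26 and 3.72, lay at an end of P2ry13, a purinergic receptor gene nested in Med12l.

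Med13l, the other long paralog of the kinase module, held 1 such summit in replicate 1 and 8 in replicate 2, and none overlapped a peak of the other list. Over all genes 81.7% of inside summits in replicate 1 and 29.2% in replicate 2 had such a partner. Med13l had 0.492 and 3.94 inside summits per 100 kb in the 2 lists, and Med12l 1.93 and 4.50. The fold enrichments at Med13l in replicate 2 were 3.11 to 4.40. Med29 held a peak shared by both lists near its far end, with 4.31 and 8.77 and summits 1373 and 1136 bp from that end, and Med24 one with 3.25 and 4.25. These counts include the summits at inner starts of Med10, Med12l and Nup210.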
